A study of Homo sapiens with 40 samples.

Results

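Microglia-like cells with the TREM2 knockout (TREM2-KO) were compared directly with microglia-like cells with the SORL1 knockout (SORL1-KO). The comparison used 15 of the 40 RNA-seq libraries of the series, 8 of TREM2-KO and 7 of SORL1-KO, and the genes with TPM (a share of all transcripts, corrected for gene length) of 1 or more in 7 or more of those 15 libraries. That left 13475 of 60504 genes. The unedited parent line (WT, 7 libraries) took no part in the test and is used only to place the genes that are named.

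All 3 lines came from the human embryonic stem cell line H9 (WA09). Per the labels, the edits were made with CRISPR/Cas9 from the PX458 plasmid, a single guide RNA and a single-stranded repair template, and sorted clones were screened and carried the edit homozygously. Among the edits the labels list TREM2 KO and the SORL1 allele R744X, without tying that allele to the SORL1-KO libraries by name. Each line passed through haematopoietic progenitors to microglia-like cells in medium with IL-34, TGF-beta 1 and M-CSF, with CD200 and CX3CL1 in the last days, so all groups share these factors. How many clones stand behind each line, and whether the libraries of a line are separate cultures, is not stated in the labels. P-values thus reflect only how these libraries vary, part of which may be technical, and a difference between the lines cannot be told apart from a difference between the clones.

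TREM2 is a lipid- and lipoprotein-sensing receptor of microglia that signals through the adaptor TYROBP and the kinase SYK. In mouse models it is required for the full disease-associated microglia programme, a set of lipid-handling, lysosomal and phagocytic genes that includes Apoe, Lpl and Gpnmb. SORL1 encodes a sorting receptor that works with the retromer complex to move cargo between endosomes, the Golgi and the cell surface, and it also binds APOE-containing lipoproteins. Rare coding variants of both genes are associated with Alzheimer's disease.

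Both lines carried RNA of the microglial lineage. Of 15 microglial markers, 14 passed the filter on low values, and the markers summed to 7760 to 11325 TPM in TREM2-KO and 7504 to 12798 TPM in SORL1-KO. CSF1R, the receptor for M-CSF and IL-34, averaged 863 TPM in TREM2-KO and 824 TPM in SORL1-KO, and TYROBP averaged 1756 TPM in TREM2-KO and 1785 TPM in SORL1-KO. The transcription factor SALL1 was below 1 TPM in all 15 libraries, and TMEM119 averaged 2.86 TPM in TREM2-KO and 4.51 TPM in SORL1-KO. The 8 pluripotency markers were all below 1 TPM in the 15 libraries. The first principal component of the 15 libraries (47.3% of the variance) did not follow the genotype. TREM2-KO 4 and 8 and SORL1-KO 4 and 7 lay on its positive side, at 25.7 to 67.9, and the other 11 libraries lay at -26.7 to -6.81. These 4 libraries had 13819 to 14068 genes at 1 TPM or more and the other 11 had 13224 to 13625. The second component (16.8%) separated the lines without overlap, with TREM2-KO at 3.47 to 29.6 and SORL1-KO at -28.2 to -5.25. Counts of genes are therefore also given without those 4 libraries, a choice made after the data were seen.

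**Figure D1:**
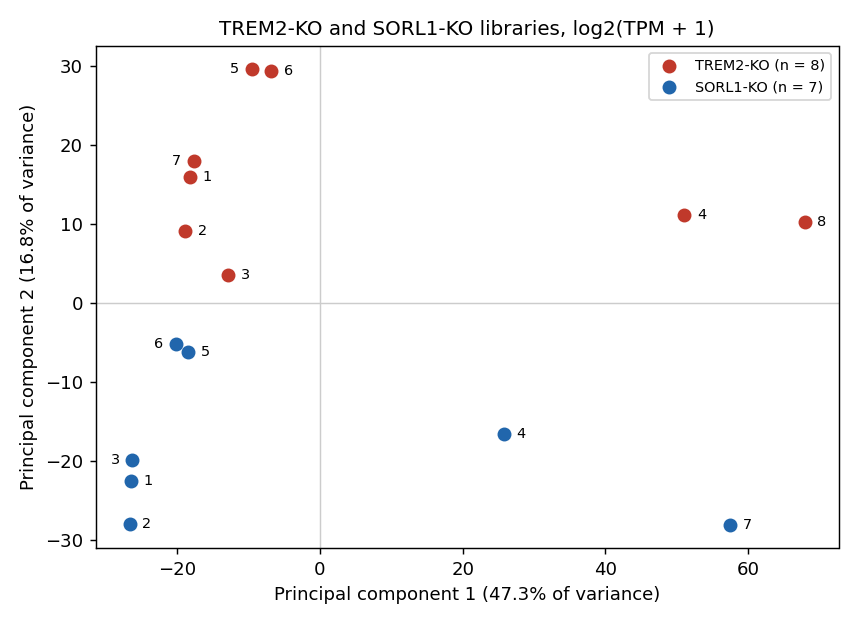
Each point is 1 library, numbered by its replicate, placed by its scores on the first 2 principal components of log2(TPM + 1) over the 13475 genes. TREM2-KO libraries are red and SORL1-KO libraries blue. The 4 libraries on the right stand apart on component 1 in both lines, and component 2 holds all 8 TREM2-KO libraries above 0 and all 7 SORL1-KO libraries below 0.

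The edited genes were read first. TREM2 (ENSG00000095970, chr6:41158506-41163186, minus strand; GRCh38 positions from GENCODE release 29, looked up by Ensembl ID) had 24.6 to 46.5 TPM in TREM2-KO, with a median of 37.6, and 401.6 to 779.7 TPM in SORL1-KO, with a median of 588. Every TREM2-KO library was below every SORL1-KO library, and WT averaged 457 ± 120.2 TPM (SD, n = 7). The difference in log2(TPM + 1), TREM2-KO minus SORL1-KO, was -3.94 ± 0.18 (SE; limma adjusted p = 1.59e-09), and an exact two-sided permutation test of the library means, with 6435 arrangements, gave p = 0.0003108, the smallest it can give. SORL1 (ENSG00000137642, chr11:121452203-121633693, plus strand) had 10.3 to 41.4 TPM in TREM2-KO, with a median of 28.0, and 12.6 to 21.5 TPM in SORL1-KO, with a median of 15.99. The groups overlapped, since TREM2-KO 5 and 6 had 11.0 and 10.3 TPM while the other 6 TREM2-KO libraries had 24.8 to 41.4 TPM, above all SORL1-KO libraries. The SORL1 difference of 0.58 ± 0.27 did not pass (limma adjusted p = 0.303; exact permutation p = 0.0696). WT averaged 33.3 ± 9.74 TPM of SORL1, and in WT too replicates 5 and 6 were lowest, at 20.6 and 18.6 TPM. In the fit of all 40 libraries, SORL1 in SORL1-KO was lower than in WT by a log2 difference of -0.96 (limma adjusted p = 0.0462). An RNA level does not show whether a protein is made.

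Between the lines, 658 genes passed at a limma adjusted p below 0.05, 4.88% of the genes tested: 320 were higher in TREM2-KO (2.37%) and 338 lower (2.51%). Differences of at least 1 on the log2 scale were mostly lower in TREM2-KO, with 34 genes higher and 122 lower among those that passed. The libraries of the lines did not overlap for 275 genes (2.04%), of which 264 passed. The median difference over all genes tested was 0.03, and 621 of the 658 are protein-coding. Without the 4 libraries that stand apart, 1118 genes were higher (8.30%) and 637 lower (4.73%). Without SORL1-KO 3 alone, 196 genes were higher.

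**Figure D2:**
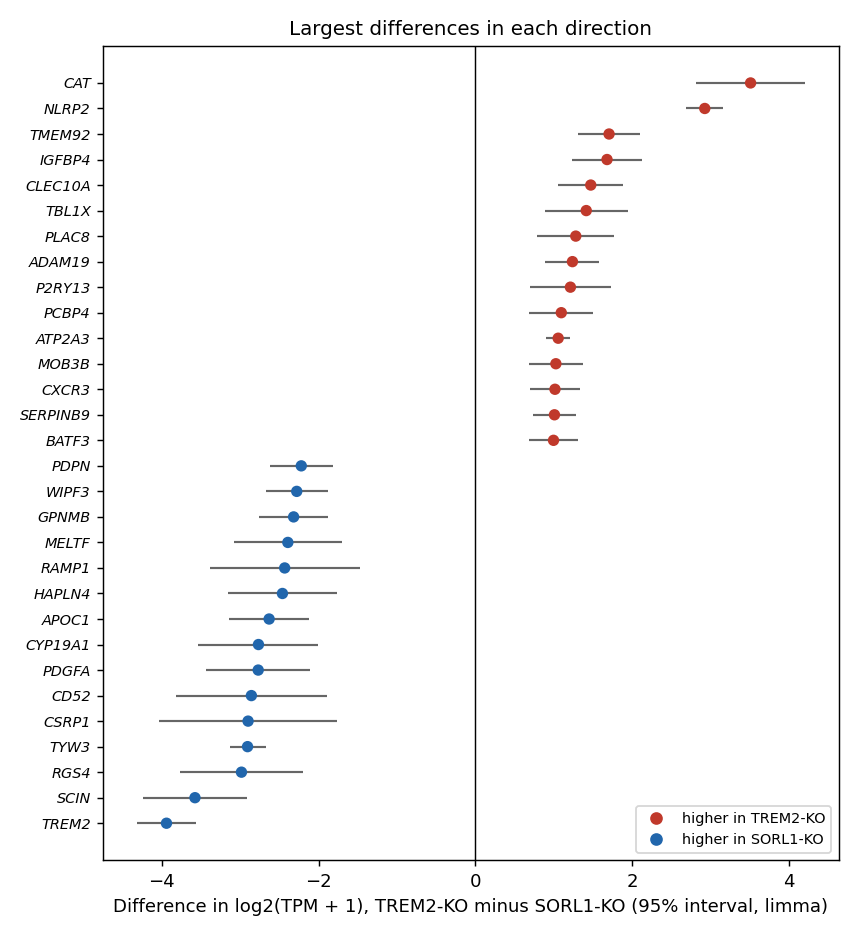
Differences in log2(TPM + 1), TREM2-KO minus SORL1-KO, for the 15 genes with the largest difference in each direction among genes that passed, averaged at least 5 TPM in either line and did not overlap between lines. Points are limma estimates and lines their 95% intervals. TREM2 is lowest at -3.94 and CAT highest at 3.51.

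Disease-associated genes stood lower in TREM2-KO, and some members of the lipid-handling lists fell. Here and below, fell and rose mean lower and higher in TREM2-KO than in SORL1-KO, without regard to WT. Of 28 disease-associated microglia genes that passed the filter (of 29 listed), 11 fell in TREM2-KO and 0 rose, and the list's median difference was -0.38 against 0.03 for all genes. Over all genes tested, 2.51% were lower and 2.37% higher. TREM2 itself is 1 of the 11, and the list was chosen with earlier results of these data known. The 11 were TREM2, GPNMB, LPL, APOE, MSR1, SPP1, CD9, LGALS3, CTSL, ITGAX and CTSD. Of 29 apolipoprotein, uptake and efflux genes, 7 fell and 0 rose: APOC1, LPL, APOE, PPARG, APOC2, APOC4 and LIPA. The median of that list was -0.08, and 13 of its 29 differences were positive. The APOC4 call ended without any 1 of TREM2-KO 6 and SORL1-KO 1, 2, 3 (limma adjusted p up to 0.0594). APOC4 averaged 0.535 TPM in TREM2-KO and 2.47 TPM in SORL1-KO. APOC2 and APOC4 also overlap a readthrough gene, which makes their values uncertain. Of 24 lipid storage and oxidation genes 1 fell and 0 rose, the median was -0.02, and 10 of the 24 differences were positive. Without the 4 libraries that stand apart, 12 disease-associated genes were lower and 1 higher, and the same count of 7 lipid genes was lower. That fit gave 4.73% lower and 8.30% higher over all genes.

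APOE, the main apolipoprotein that microglia secrete, had 818 to 2429 TPM in TREM2-KO, with a median of 1118, and 3575 to 5714 TPM in SORL1-KO, with a median of 4456. No TREM2-KO library reached the lowest SORL1-KO library, and within TREM2-KO numbers 2 and 3 were high, at 2102 and 2429 TPM. Numbers 2 and 3 were also the highest in WT, at 3229 and 4615 TPM, and had 5714 and 4807 TPM in SORL1-KO. The APOE difference between the knockout lines was -1.85 ± 0.23 (limma adjusted p = 2.20e-04, exact permutation p = 0.0003108), and WT lay between the lines at 2669 TPM. APOC1, a small exchangeable apolipoprotein whose gene lies next to APOE, had 81.6 to 335 TPM in TREM2-KO, with a median of 154, and 828 to 1280.2 TPM in SORL1-KO, with a median of 902. The highest TREM2-KO library was again number 3, and it stayed well below all SORL1-KO libraries. The APOC1 difference was -2.63 ± 0.24 (limma adjusted p = 1.07e-05). LPL, the lipoprotein lipase that frees fatty acids from lipoproteins, had 11.4 to 41.2 TPM in TREM2-KO and 48.0 to 151 TPM in SORL1-KO. The lines did not overlap, replicates 5 and 6 were lowest in both, and the difference was -1.92 ± 0.29 (limma adjusted p = 0.00109).

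GPNMB, a transmembrane glycoprotein of lipid-laden macrophages, had 21.4 to 52.0 TPM in TREM2-KO, with a median of 32.2, and 118 to 257 TPM in SORL1-KO, with a median of 162. Number 3 was the highest TREM2-KO library, and the lines did not overlap. The difference was -2.32 ± 0.21 (limma adjusted p = 8.44e-06). FABP3, a carrier of fatty acids inside the cell, was the lipid storage and oxidation gene that fell, with 9.44 to 27.5 TPM in TREM2-KO and 56.1 to 87.4 TPM in SORL1-KO (difference -2.13, limma adjusted p = 9.76e-06). PPARG, a nuclear receptor that controls lipid storage and lipid uptake genes, averaged 1.87 ± 1.00 TPM in TREM2-KO (SD, n = 8) and 8.91 ± 2.82 TPM in SORL1-KO (n = 7), without overlap, and its limma adjusted p was 1.46e-04. MSR1, a scavenger receptor for modified lipoproteins, averaged 10.2 ± 3.81 TPM in TREM2-KO and 34.4 ± 7.89 TPM in SORL1-KO and passed in limma (-1.70, adjusted p = 7.91e-05). Cholesterol synthesis did not follow: 1 of 27 members passed, against 4.88% of all genes. It was INSIG2, which retains the sterol sensor in the endoplasmic reticulum, higher by 0.43. Its call ended when SORL1-KO 1, SORL1-KO 3 or TREM2-KO 5 was left out (limma adjusted p up to 0.0543).

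SPP1, the secreted phosphoprotein osteopontin, was the most abundant of these genes. It had 1447 to 11279 TPM in TREM2-KO, with a median of 10194, and 11163 to 30724 TPM in SORL1-KO, with a median of 25437. In each line the libraries that stand apart were lowest, at 4455 and 1447 TPM for TREM2-KO 4 and 8 and at 17162 and 11163 TPM for SORL1-KO 4 and 7, and the lines overlapped through SORL1-KO 7. The SPP1 difference was -1.65 (limma adjusted p = 0.0235). It lost its call without any 1 of SORL1-KO 1, 2 and 3 (limma adjusted p of 0.0541 to 0.0580) and was -1.43 with an adjusted p of 2.12e-07 without the 4 libraries. CD9, a tetraspanin, averaged 215 ± 74.4 TPM in TREM2-KO and 445 ± 121 TPM in SORL1-KO (limma adjusted p = 0.00876), with TREM2-KO 8 alone inside the SORL1-KO range. LGALS3, the carbohydrate-binding galectin 3, did not overlap between the lines, at 12.8 to 22.9 TPM in TREM2-KO and 25.2 to 47.4 TPM in SORL1-KO (difference -0.85, limma adjusted p = 0.0027).

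**Figure D3:**
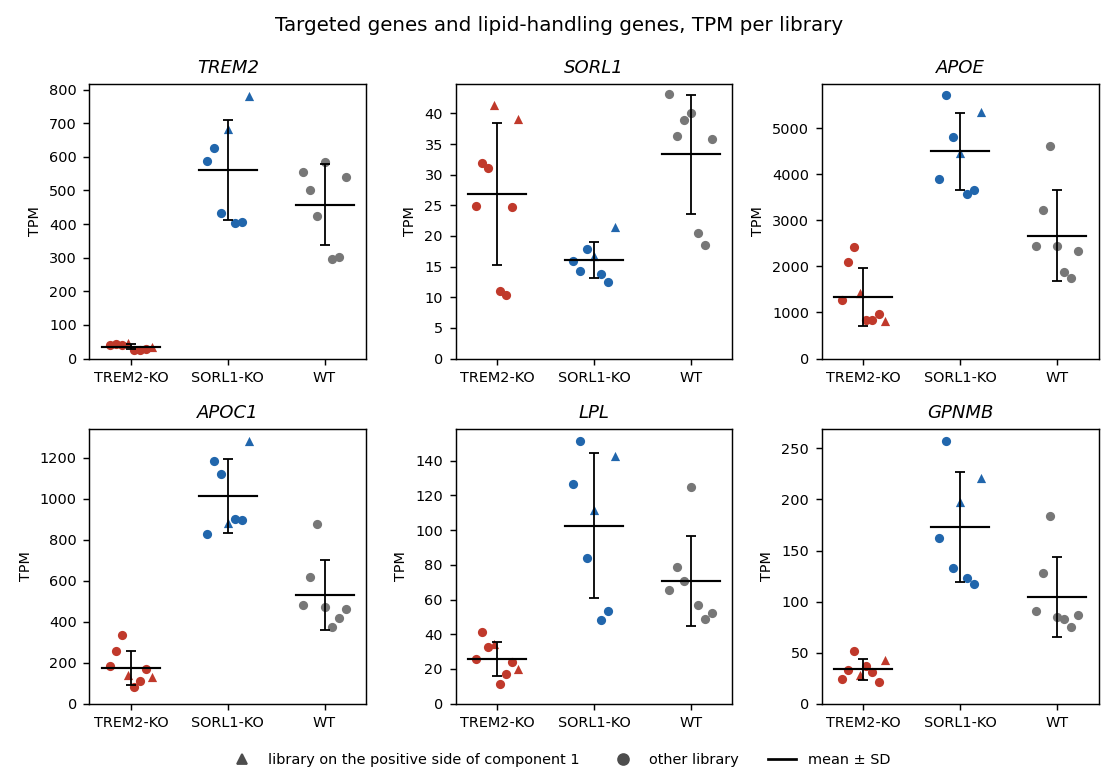
TPM of 6 genes in every library of TREM2-KO (8), SORL1-KO (7) and WT (7), in replicate order, on axes that start at 0. Black lines are means ± SD, and triangles mark the 4 knockout libraries on the positive side of component 1. TREM2, APOE, APOC1, LPL and GPNMB did not overlap between TREM2-KO and SORL1-KO, and SORL1 did.

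The promoter windows of 5 of these lipid and lysosome genes are shown because the genes fell together; each window runs from 250 bases before to 50 after a RefSeq start (GRCh38.p14), 5′ to 3′ on the gene's strand. Capitals mark every match to 4 motifs, searched on both strands: TCATGTGA (M-box), CACGTG (E-box), AGGTCA (nuclear receptor half-site) and GGGCGG (GC-box).
APOE (chr19:44905546-44905845, plus strand): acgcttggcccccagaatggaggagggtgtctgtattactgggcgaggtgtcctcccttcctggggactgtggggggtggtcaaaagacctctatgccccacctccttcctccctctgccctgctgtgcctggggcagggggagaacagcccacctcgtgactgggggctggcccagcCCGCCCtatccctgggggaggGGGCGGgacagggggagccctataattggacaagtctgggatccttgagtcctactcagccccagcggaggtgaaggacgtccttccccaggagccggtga
APOC1 (chr19:44914422-44914721, plus strand): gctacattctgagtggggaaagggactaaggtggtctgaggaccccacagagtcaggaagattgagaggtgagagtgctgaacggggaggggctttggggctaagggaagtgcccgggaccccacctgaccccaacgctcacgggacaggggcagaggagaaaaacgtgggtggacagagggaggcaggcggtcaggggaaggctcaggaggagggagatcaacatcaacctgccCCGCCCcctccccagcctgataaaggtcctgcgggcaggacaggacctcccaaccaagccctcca
GPNMB (chr7:23246525-23246824, plus strand): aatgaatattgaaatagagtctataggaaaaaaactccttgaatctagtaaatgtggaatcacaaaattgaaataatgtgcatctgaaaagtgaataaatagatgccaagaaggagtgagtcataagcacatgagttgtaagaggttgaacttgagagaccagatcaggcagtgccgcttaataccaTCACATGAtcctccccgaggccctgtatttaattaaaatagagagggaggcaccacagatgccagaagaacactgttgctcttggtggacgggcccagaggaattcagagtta
FABP3 (chr1:31373027-31373326, minus strand): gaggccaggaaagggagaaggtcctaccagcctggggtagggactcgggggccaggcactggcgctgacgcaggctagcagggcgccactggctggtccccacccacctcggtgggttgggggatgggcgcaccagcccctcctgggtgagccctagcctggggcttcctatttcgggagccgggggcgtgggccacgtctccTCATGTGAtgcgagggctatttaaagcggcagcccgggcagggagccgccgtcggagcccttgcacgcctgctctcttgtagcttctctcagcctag
CTSL (chr9:87725869-87726168, plus strand): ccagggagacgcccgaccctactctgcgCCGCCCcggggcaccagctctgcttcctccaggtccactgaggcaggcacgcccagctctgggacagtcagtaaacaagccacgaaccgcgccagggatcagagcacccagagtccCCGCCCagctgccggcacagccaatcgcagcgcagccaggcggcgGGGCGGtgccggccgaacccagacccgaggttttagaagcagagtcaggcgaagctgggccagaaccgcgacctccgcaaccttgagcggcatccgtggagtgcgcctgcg
GPNMB and FABP3 each held 1 M-box, a motif found in 351 of 35116 windows of this length in the table. APOE held 2 GC-boxes, APOC1 held 1 and CTSL held 3, and 45% of all windows hold at least 1. None of the 5 windows held the E-box or the half-site, which 7.26% and 13.8% of all windows hold. These are matches of letters, not binding sites, and both the 5 genes and the motifs were chosen after the values were seen. Other genes that fell, such as LPL and PPARG, are not shown. The M-boxes in this choice of genes thus cannot be weighed against the share over all windows. APOE has 3 windows, of which 1 is shown.

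Of 54 measured lysosomal genes, 4 fell in TREM2-KO and 0 rose, where 2.51% of all genes were lower. The list median was -0.13, and 40 of the 54 differences were negative. CTSL, a cysteine protease, had 172 to 269 TPM in TREM2-KO and 330.2 to 546 TPM in SORL1-KO, and LIPA, the acid lipase that splits lysosomal cholesterol esters, had 143 to 247 TPM in TREM2-KO and 256 to 661 TPM in SORL1-KO. Neither gene overlapped between the lines (CTSL -0.83, limma adjusted p = 6.97e-04; LIPA -1.12, limma adjusted p = 0.00332). CTSC, another protease, fell by 0.29 on the log2 scale (limma adjusted p = 0.0139). CTSD, an aspartic protease, passed (-0.39, limma adjusted p = 0.0262), but its limma adjusted p was 0.0707 without the 4 libraries and up to 0.0649 without any 1 of TREM2-KO 5, 6, 7 and SORL1-KO 2, 4. Without the 4 libraries that stand apart, 11 lysosomal genes were lower and 2 higher, against 4.73% lower and 8.30% higher over all genes. The lower count was 8 without TREM2-KO 8 alone and 9 with median-ratio scaling. Among 43 endosomal sorting genes, the pathway in which SORL1 acts, 3 fell and 0 rose, and the list median was 0.01. EHD4, an endosomal membrane ATPase, averaged 30.2 ± 1.69 TPM in TREM2-KO and 39.1 ± 3.95 TPM in SORL1-KO (limma adjusted p = 0.00527). The call of the adaptor GGA1 ended without any 1 of TREM2-KO 1, 5, 6, 7 and SORL1-KO 1, 2 (limma adjusted p up to 0.0638), and that of the receptor IGF2R without any 1 of TREM2-KO 1, 2, 3, 5, 7 and SORL1-KO 1, 2, 4, 6, 7 (limma adjusted p up to 0.0936). The count was 1 without TREM2-KO 1, 5 or 7 or SORL1-KO 1 or 2.

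Several of the largest differences lay outside lipid handling. The genes with the largest differences were picked among those that passed without overlap, so their lack of overlap restates that rule. SCIN, a calcium-dependent actin-severing protein, had 0.26 to 5.88 TPM in TREM2-KO, with a median of 0.95, and 19.3 to 35.5 TPM in SORL1-KO, with a median of 27.5. TREM2-KO 3 held the value of 5.88, the other TREM2-KO libraries had at most 2.69, and no library overlapped. The difference was -3.58 ± 0.31 (limma adjusted p = 6.75e-06), with WT at 11.4 TPM. RGS4, which shortens G-protein signalling, had 0.74 to 5.63 TPM in TREM2-KO and 13.9 to 55.7 TPM in SORL1-KO, without overlap (-2.98, limma adjusted p = 1.82e-04). CD52, a small surface glycoprotein of leukocytes, had 16.1 to 108 TPM in TREM2-KO and 143 to 555 TPM in SORL1-KO, also without overlap (-2.86, limma adjusted p = 0.00139). PDGFA, a platelet-derived growth factor, was the 1 of 10 growth factor genes that fell, where 2.51% of all genes were lower. It averaged 3.54 ± 2.11 TPM in TREM2-KO and 28.6 ± 10.3 TPM in SORL1-KO (-2.77, limma adjusted p = 7.55e-05). Another 6 genes were lower by 2.22 to 2.77 on the log2 scale. They included CYP19A1, the aromatase that makes oestrogens, PDPN, a mucin-type membrane protein, and RAMP1, a subunit of the receptor for the neuropeptide CGRP. The others were MELTF, an iron-binding melanotransferrin, HAPLN4, a hyaluronan link protein, and WIPF3, a partner of WASP-family actin regulators. WIPF3 had at most 0.57 TPM in TREM2-KO and passed the filter on low values only through SORL1-KO.

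TYW3 and CSRP1 were low in TREM2-KO in different ways. TYW3, an enzyme of tRNA wybutosine synthesis, had 0 to 0.1 TPM in TREM2-KO, 5.36 to 9.37 TPM in SORL1-KO and a mean of 7.52 TPM in WT. All 8 TREM2-KO libraries were at 0.1 TPM or below and every SORL1-KO library was above 5 TPM (limma adjusted p = 1.37e-10). TYW3 thus passed the filter on low values only through SORL1-KO. CSRP1, a LIM-domain protein of the actin cytoskeleton, had 21.5 and 23.4 TPM in TREM2-KO 5 and 6, 0.39 to 4.3 TPM in the other 6 TREM2-KO libraries, and 24.9 to 46.0 TPM in SORL1-KO. TREM2-KO 5 and 6 reached almost to the lowest SORL1-KO library, and the other TREM2-KO libraries were far below it (-2.90, limma adjusted p = 0.00452). Those 2 libraries also had the highest stromal and endothelial marker scores (mean log2(TPM + 1) of 17 markers) of the 15, at 2.75 and 2.71, against 0.957 to 1.58 in the other TREM2-KO libraries and 1.00 to 2.36 in SORL1-KO. With that score as a covariate the CSRP1 difference was -3.07 (limma adjusted p = 3.22e-04).

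Genes higher in TREM2-KO were led by CAT and NLRP2. CAT (ENSG00000121691), the catalase that breaks down hydrogen peroxide, had 14.5 to 62.2 TPM in TREM2-KO, with a median of 20.8, and 0.51 to 2.93 TPM in SORL1-KO, with a median of 1.07. In both lines the 4 libraries that stand apart were highest, at 59.9 and 62.2 TPM for TREM2-KO 4 and 8 and at 2.4 and 2.93 TPM for SORL1-KO 4 and 7. The CAT difference was 3.51 ± 0.33 (limma adjusted p = 1.23e-05), and it was 3.37 without the 4 libraries. CAT was the 1 of 31 antioxidant genes that was higher in TREM2-KO than in SORL1-KO, and 0 were lower. Over all genes tested, 2.37% were higher. WT averaged 62.6 TPM of CAT, above the means of both lines. NLRP2, a NOD-like receptor, had 5.44 to 8.9 TPM in TREM2-KO and 0 to 0.24 TPM in SORL1-KO, where 4 of the 7 libraries were listed at 0. The lines were far apart in every library (2.93 ± 0.11, limma adjusted p = 1.37e-10), and NLRP2 passed the filter on low values only through TREM2-KO. IGFBP4, which binds insulin-like growth factors, had 49.1 to 110.5 TPM in TREM2-KO and 13.7 to 35.8 TPM in SORL1-KO (1.68, limma adjusted p = 2.10e-04). ATP2A3, a calcium pump of the endoplasmic reticulum, spread little, with 78.4 ± 4.65 TPM in TREM2-KO and 37.3 ± 4.51 TPM in SORL1-KO (1.06 ± 0.07, limma adjusted p = 4.64e-07).

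The other genes of this direction included surface and immune genes. CLEC10A, a C-type lectin of macrophages and dendritic cells, had 55.5 to 150.1 TPM in TREM2-KO and 23.1 to 48.9 TPM in SORL1-KO (1.47, limma adjusted p = 3.04e-04). P2RY13, a purinergic receptor of homeostatic microglia, had 36.2 to 76.6 TPM in TREM2-KO and 11.2 to 34.6 TPM in SORL1-KO (1.21, limma adjusted p = 0.00807). SERPINB9, an inhibitor of granzyme B, averaged 23.0 ± 4.85 TPM in TREM2-KO and 10.8 ± 1.5022 TPM in SORL1-KO (1.01, limma adjusted p = 2.10e-04). Another 8 genes were higher by 1.00 to 1.71. They included BATF3, a transcription factor of dendritic cells, CXCR3, a chemokine receptor, ADAM19, a membrane metalloproteinase, and PLAC8. The others were TBL1X, a subunit of nuclear corepressor complexes, PCBP4, an RNA-binding protein, MOB3B and TMEM92.

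**Figure D4:**
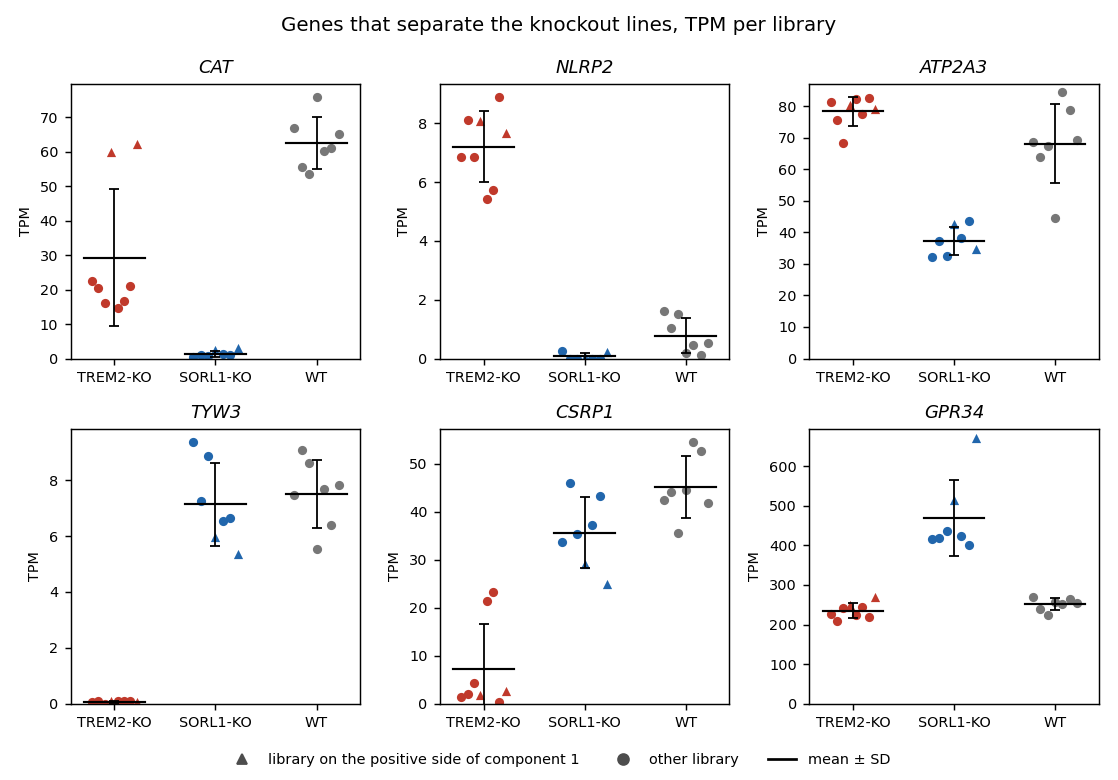
TPM of 6 genes in every library of TREM2-KO (8), SORL1-KO (7) and WT (7), in replicate order, on axes that start at 0, with means ± SD in black and triangles for the 4 knockout libraries on the positive side of component 1. CAT, NLRP2 and ATP2A3 were higher in TREM2-KO, and TYW3, CSRP1 and GPR34 lower, without overlap. For CSRP1, TREM2-KO 5 and 6 lie at 21.5 and 23.4 TPM, apart from the other TREM2-KO libraries.

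Against WT the genes fell into different places. The 17 stromal and endothelial markers summed to 194 to 3291 TPM in WT (median 774 TPM), against medians of 340 TPM in TREM2-KO and 198 TPM in SORL1-KO. The differences from WT given here were not adjusted for these markers. Both comparisons with WT share the WT libraries, and each shares a line with the direct comparison, so the values are set side by side only; 1.61% of 14855 genes passed for TREM2-KO against WT and 1.09% for SORL1-KO against WT. APOC1 was lower in TREM2-KO than in WT (-1.66, limma adjusted p = 4.19e-05) and higher in SORL1-KO than in WT (0.97, limma adjusted p = 0.0462). APOE was lower in TREM2-KO than in WT (-1.05, limma adjusted p = 0.00541), and its difference of 0.80 in SORL1-KO did not pass (limma adjusted p = 0.0650). PDGFA, PDPN and TYW3 were lower in TREM2-KO than in WT by -2.33, -1.80 and -2.98, and their differences in SORL1-KO, 0.44, 0.42 and -0.07, did not pass. For SERPINB9, ATP2A3, CLEC10A and BATF3 it was SORL1-KO that was lower than WT, by -1.07, -0.84, -1.53 and -0.81, while the TREM2-KO differences were -0.06, 0.22, -0.05 and 0.18 and did not pass. GPR34, a lysophosphatidylserine receptor of microglia, was higher in SORL1-KO than in WT (0.87, limma adjusted p = 5.81e-05), and its TREM2-KO difference was -0.10. HAMP and SMS were also higher in SORL1-KO than in WT, by 1.43 and 0.96 (limma adjusted p = 0.00696 and 2.06e-06). Their TREM2-KO differences, -0.70 and 0.15, did not pass. CTSD passed against WT in neither line, at 0.005 in TREM2-KO and 0.40 in SORL1-KO. CAT was on average below WT in both lines, by -1.29 in TREM2-KO and -4.80 in SORL1-KO (limma adjusted p = 0.00259 and 2.95e-16). TREM2-KO 4 and 8, at 59.9 and 62.2 TPM, lay within the WT range of 53.4 to 76.0 TPM. NLRP2 was higher in TREM2-KO than in WT by 2.26 (limma adjusted p = 1.68e-11), and its difference in SORL1-KO was -0.67 (limma adjusted p = 0.0548).

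Of 44 TREM2 and TYROBP signalling genes, 3 rose and 3 fell in TREM2-KO, where 4.88% of all genes passed in either direction, and the list median was 0.02. TYROBP had a difference of -0.02 and SYK of 0.24 (limma adjusted p = 0.989 and 0.681). TREM2 was 1 of the 3 that fell, beside FYN, a Src-family kinase with 8.62 to 29.9 TPM in TREM2-KO and 29.1 to 70.6 TPM in SORL1-KO (-1.42, limma adjusted p = 0.00586), and the adaptor DOK3 (-0.43, limma adjusted p = 0.00508). The kinase SRC, the adaptor CARD9 and MS4A6A rose by 0.46, 0.38 and 1.05. When SORL1-KO 3 was left out 0 members were higher by limma, and without SORL1-KO 5 the count was 1. Without the 4 libraries that stand apart, 12 signalling genes were higher and 4 lower, against 8.30% and 4.73% of all genes.

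Among 28 homeostatic microglia genes 3 rose and 2 fell, with a list median of 0.13. Over all genes tested, 2.37% were higher and 2.51% lower. P2RY13 and SIGLEC10, an inhibitory lectin receptor, rose without overlap, the second with 153 to 207 TPM in TREM2-KO and 72.6 to 147 TPM in SORL1-KO (0.72, limma adjusted p = 0.00467). GPR34 fell, with 210.0 to 269 TPM in TREM2-KO and 401 to 672 TPM in SORL1-KO, without overlap (-0.97, limma adjusted p = 4.81e-05). The remaining calls were less firm. That of AIF1 ended without any 1 of TREM2-KO 4, 5, 6 and SORL1-KO 1, 2, 3 (limma adjusted p up to 0.0692), and that of the hexose transporter SLC2A5 without any 1 of TREM2-KO 4, 5, 6 and SORL1-KO 1 to 6 (limma adjusted p up to 0.0882). Without SORL1-KO 7, 5 homeostatic genes were higher. P2RY12, CX3CR1 and CSF1R did not pass, with differences of 0.49, 0.28 and 0.07. Of 38 phagocytosis and complement genes, 3 rose and 5 fell, with a median of 0.12. ITGAM, the alpha chain of complement receptor CR3, rose with 103 to 145 TPM in TREM2-KO and 60.5 to 98.7 TPM in SORL1-KO, without overlap (0.76, limma adjusted p = 4.56e-04). The integrin chains ITGB3 and ITGB5 fell by 0.95 and 0.69 on the log2 scale without overlap (limma adjusted p = 0.00104 and 0.00247). Without the 4 libraries, 10 homeostatic genes were higher and 5 lower, and 15 phagocytic genes were higher and 8 lower. In that fit 8.30% of all genes were higher and 4.73% lower. Without SORL1-KO 7 alone, 5 phagocytic genes were higher.

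The count of antigen presentation genes that passed differed with and without the 4 libraries that stand apart. With all 15 libraries 0 of 24 genes passed by limma (4 higher and 0 lower at an unadjusted p below 0.05), 21 of the 24 differences were positive, and the median was 0.19. Without the 4 libraries 10 were higher and 0 lower, where 8.30% of all genes were higher and 4.73% lower. CD74, the invariant chain of class II molecules, averaged 6556 TPM in TREM2-KO and 4231 TPM in SORL1-KO, and HLA-DPA1, a class II alpha chain, averaged 1253 TPM in TREM2-KO and 748 TPM in SORL1-KO, and neither passed with all libraries (limma adjusted p = 0.233 and 0.208). Genes of border-associated macrophages, which lie outside the brain parenchyma, were read beside them. CLEC10A alone rose among 10 measured members, where 2.37% of all genes were higher. The list median was 0.85, and 7 were higher and 0 lower without the 4 libraries. Without SORL1-KO 4 alone 2 were higher, and without SORL1-KO 7 alone 3. MRC1, the mannose receptor, averaged 28.8 TPM in TREM2-KO and 13.01 TPM in SORL1-KO and did not pass (limma adjusted p = 0.0731).

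Immediate-early genes, which stimuli switch on within minutes, stood lower in TREM2-KO. Of 29 measured, 6 fell and 0 rose, against 2.51% lower and 2.37% higher over all genes. The list median was -0.30. The phosphatase gene DUSP1 had 23.2 to 35.9 TPM in TREM2-KO and 43.7 to 55.6 TPM in SORL1-KO, without overlap (-0.74, limma adjusted p = 2.37e-04). The transcription factor genes MAFF, EGR2 and ATF3 fell by 0.82, 1.76 and 1.73 on the log2 scale (limma adjusted p = 0.00134, 0.00143 and 0.00226), and ATF3 alone of these overlapped. The calls of EGR1 and EGR3 ended without any 1 of TREM2-KO 5, 6 and SORL1-KO 1, 2, 3, 5, 6, and that of EGR1 also without TREM2-KO 4 or 8 (limma adjusted p up to 0.0957 and 0.0739). Without the 4 libraries 11 immediate-early genes were lower and 1 higher, against 4.73% and 8.30% of all genes. Among 33 cytokine and NF-kB genes, 3 fell and 1 rose. CCL4, a chemokine, had 5.33 to 10.5 TPM in TREM2-KO and 16.1 to 36.3 TPM in SORL1-KO (-1.45, limma adjusted p = 1.46e-04), CCL3 fell by 1.21 (limma adjusted p = 0.0105), and the cytokine OSM fell by 0.87 (limma adjusted p = 0.0027). IL1A, an inflammatory cytokine, rose by 0.86 (limma adjusted p = 0.00166), and none of the 4 overlapped. In the fit of all 40 libraries CCL3 did not pass. The count of higher cytokine genes was 2 without TREM2-KO 2, TREM2-KO 3 or SORL1-KO 7 and 3 without SORL1-KO 4. Of 32 interferon-response genes, 0 passed by limma with all 15 libraries (4 higher and 1 lower at an unadjusted p below 0.05). Without the 4 libraries 3 were higher and 1 lower, where 8.30% of all genes were higher and 4.73% lower.

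Cell-cycle genes stood higher in TREM2-KO. Of 36 measured, 6 rose and 0 fell, against 2.37% higher and 2.51% lower over all genes. Of the 36 differences 32 were positive, and the median was 0.28. TOP2A, the topoisomerase of dividing cells, had 99.01 to 141 TPM in TREM2-KO and 56.1 to 94.7 TPM in SORL1-KO, without overlap (0.69, limma adjusted p = 0.00111). CENPF, a kinetochore protein, rose by 0.51 (limma adjusted p = 0.0162), and the proliferation antigen gene MKI67 by 0.52 (limma adjusted p = 0.0252). The MKI67 call ended without any 1 of TREM2-KO 1, 2, 7 and SORL1-KO 2, 3 (limma adjusted p up to 0.0548). The count of higher genes was 3 without SORL1-KO 3, 10 without TREM2-KO 8 and 2 with replicates 5 and 6 of each line averaged. Without the 4 libraries 15 were higher and 0 lower, where 8.30% of all genes were higher and 4.73% lower. The replication licensing genes MCM2 to MCM7 did not pass, at -0.11 to 0.29.

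Matrix and iron genes fell in part. Of 31 matrix and adhesion genes, 6 fell and 0 rose, with a median of -0.19: FERMT2, COL6A1, MMP2, COL6A2, ITGB1 and ITGB5. Over all genes tested, 2.51% were lower and 2.37% higher. FERMT2, an activator of integrins, had 1.11 to 2.88 TPM in TREM2-KO and 3.93 to 6.3 TPM in SORL1-KO (-1.20, limma adjusted p = 7.40e-05), and the gelatinase MMP2 had 11.1 to 47.9 TPM in TREM2-KO and 53.2 to 112 TPM in SORL1-KO (-1.46, limma adjusted p = 0.00755). The collagen VI chains COL6A1 and COL6A2 were lower by 1.69 and 1.54 on the log2 scale. Of 7 measured stromal and endothelial markers 0 passed by limma (0 higher and 1 lower at an unadjusted p below 0.05), 6 of the 7 differences were positive, and the median was 0.36. The 17 listed markers summed to 197 to 468 TPM in TREM2-KO (median 340 TPM) and 150.2 to 429 TPM in SORL1-KO (median 198 TPM), and PDGFRA, CDH5, KDR and TEK were below 1 TPM in all 15 libraries. Of 21 iron genes, 4 fell and 0 rose. HAMP, the iron hormone hepcidin, had 0.32 to 4.27 TPM in TREM2-KO and 8.34 to 14.2 TPM in SORL1-KO, and SLC11A1, a metal transporter of phagosomes, had 10.8 to 39.5 TPM in TREM2-KO and 37.1 to 92.9 TPM in SORL1-KO (-2.13 and -1.74, limma adjusted p = 3.88e-04 and 9.05e-04). HAMP did not overlap between the lines, and SLC11A1 did through TREM2-KO 4. Of 20 polyamine genes, 1 fell, SMS, the spermine synthase (-0.81, limma adjusted p = 0.00319). DHPS and OAZ1, 2 others of that list, rose, and neither was called without SORL1-KO 5. Of 42 oxidative phosphorylation genes, 0 passed by limma (0 higher and 0 lower at an unadjusted p below 0.05), and the median was -0.0016.

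**Figure D5:**
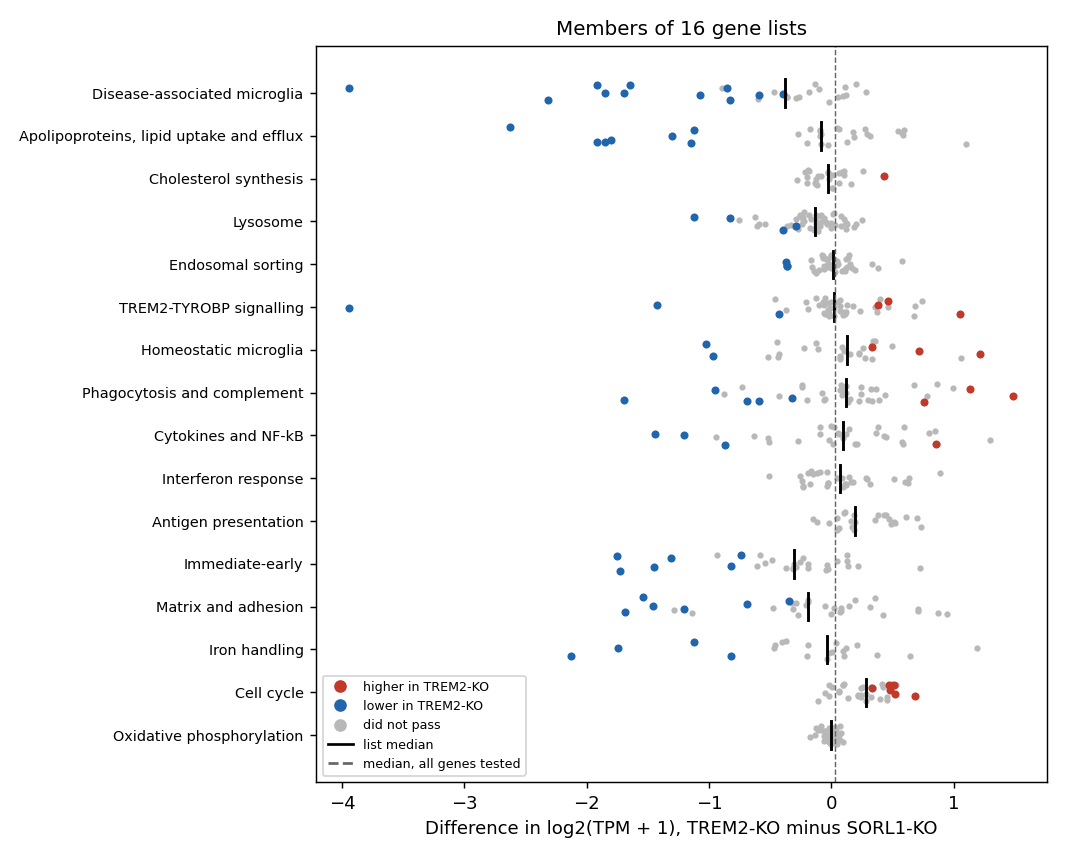
Each point is a measured member of 1 of 16 gene lists, placed by its difference in log2(TPM + 1), TREM2-KO minus SORL1-KO. Red and blue points passed at a limma adjusted p below 0.05, grey points did not, black bars are list medians, and the dashed line is the median of all 13475 genes tested. Blue points include 11 of 28 disease-associated, 7 of 29 lipid, 6 of 29 immediate-early, 6 of 31 matrix and 4 of 21 iron genes. Red points include 6 of 36 cell-cycle genes. Lists share members, so a gene can count more than once. APOE and LPL are in the disease-associated and lipid lists, and CTSL, CTSD and LIPA of the lysosome list recur in these. Vertical placement within a list is arbitrary.

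Genes associated with Alzheimer's disease risk were split between the directions. Of 56 measured, 3 rose and 5 fell, against 2.37% higher and 2.51% lower over all genes. The median was 0.03. APOE and TREM2 were among those that fell, with FERMT2 and PSEN2, a catalytic subunit of gamma-secretase, which had 10.9 to 19.7 TPM in TREM2-KO and 21.1 to 31.9 TPM in SORL1-KO without overlap (-0.79, limma adjusted p = 0.00134). The sheddase ADAM17 also fell (-0.37, limma adjusted p = 0.0238), and its call ended without TREM2-KO 5 or 7 (limma adjusted p up to 0.0517). The 3 that rose, MS4A6A, RHOH and JAZF1, had calls that ended without any 1 of 9, 10 and 12 libraries in that order, and 0 of the 3 were called by limma without SORL1-KO 1, 2 or 3 or TREM2-KO 4, 5 or 6.

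Markers of other cell types were read in the same way. In bulk RNA, fewer cells of a type and less RNA per cell cannot be told apart. Over all genes tested, 2.37% were higher and 2.51% lower. Of 10 monocyte markers, 1 rose and 0 fell by limma (4 higher and 0 lower at an unadjusted p below 0.05). Of the 10 differences 9 were positive, and the median was 0.68. The marker that rose was the calprotectin chain S100A9 (2.02, limma adjusted p = 0.0389). It had 109 to 1326 TPM in TREM2-KO and 42.5 to 355 TPM in SORL1-KO. The monocyte markers summed to 357 to 2550 TPM in TREM2-KO (median 1030 TPM) and 223 to 999 TPM in SORL1-KO (median 472 TPM). The S100A9 call ended without any 1 of TREM2-KO 1, 4, 5, 6, 7 and SORL1-KO 1, 2, 3, 5 (limma adjusted p up to 0.0903), and TREM2-KO 4, 5 and 6 held its highest values. Of 4 measured neural markers 3 fell: SLC1A3, a glutamate transporter that macrophages also express, with 2.71 to 17.5 TPM in TREM2-KO and 21.1 to 44.9 TPM in SORL1-KO, OLIG2 and NES. The NES call ended without any 1 of TREM2-KO 4, 5, 6 and SORL1-KO 1, 2, 3, 5, 6 (limma adjusted p up to 0.0967), and OLIG2 did not pass in the fit of all 40 libraries. AQP4 was at 0 in all 15 libraries, and the 12 neural markers summed to 79.5 to 122 TPM in TREM2-KO and 100.5 to 141 TPM in SORL1-KO. Of the 5 measured lymphoid markers, NCAM1, an adhesion molecule, fell (4.67 ± 1.90 TPM in TREM2-KO and 20.8 ± 8.49 TPM in SORL1-KO, limma adjusted p = 5.12e-04), and MS4A1 was at 0 in all 15. With the stromal and endothelial score as a covariate, 652 genes passed by limma, 314 higher and 338 lower. Of these, 615 were among the 658 of the main fit. That score covers stromal and endothelial markers only. The part that other cells had in the differences between the lines was not tested.

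Genes near the edited loci and near the largest differences were listed by distance. Over all genes tested, 2.37% were higher and 2.51% lower. Within 1 Mb of TREM2, 14 other genes passed the filter and 1 was higher, the transcription factor FOXP4 (0.44, limma adjusted p = 0.00416). Within 1 Mb of SORL1, 3 passed the filter and 0 were called by limma (1 at an unadjusted p below 0.05), and within 1 Mb of CAT, 9 passed the filter and 0 were called (0 at an unadjusted p below 0.05). Within 1 Mb of APOE, 56 other genes passed the filter, 3 were higher and 4 lower. The 4 were APOC1, APOC2, APOC4 and the readthrough gene APOC4-APOC2, whose reads overlap those of APOC2 and APOC4, so the values of these 3 are uncertain. APOC2, an activator of LPL, had 11.0 to 43.2 TPM in TREM2-KO and 42.4 to 87.7 TPM in SORL1-KO (-1.30, limma adjusted p = 0.0055).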

How the data were processed

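Total RNA of 15 libraries, 8 of TREM2-KO and 7 of SORL1-KO, was compared, with 7 WT libraries beside them. The authors deposited TPM values, 1 column per library; per the submitters' processing notes the tools were RSEM 1.3.1, STAR 2.7, cutadapt 1.18 and DESeq2. For the genome build, the sources used here give no name. Read counts were not used here, so depth is unknown and no count model was fitted. Symbols matched 94.2% of gene IDs.

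The deposited TPM was taken to log2(TPM + 1) and fitted with limma 3.58.1 (trend, robust; R 4.3.3) on the genes at 1 TPM or more in 7 or more of the 15 libraries, two-sided, with Benjamini-Hochberg adjustment over 13475 genes. WT values came from a fit of all 40 libraries. This scale understates the change of low genes. By rule the text names TREM2, SORL1 and APOE, the 15 largest non-overlapping differences in each direction at 5 TPM or more, and up to 5 called members per list; other names were chosen after their values were seen. Members and lists were chosen with earlier results of these data known. The fit was tested on simulated data, with the deviations of each gene shuffled separately across libraries. That removes patterns shared between genes, such as component 1, so the simulation cannot show how these affect false calls. Alternatives changed the pseudocount, filter, scaling, weights, covariates, block and libraries.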

Additional observations from a re-analysis of the deposited data

Results flagged for a closer look

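In 3 of the 64 groups examined, the 2 lines of 32 genes, 1 library lay far from the others of its line, about as many as chance gives, since it marks about 1 in 20 groups. SCIN had 5.88 TPM in TREM2-KO 3 and 0.26 to 2.69 TPM in the other TREM2-KO libraries. TYW3 was listed at 0 in TREM2-KO 3 and had 0.06 to 0.1 TPM in the others. CLEC10A had 150.14 TPM in TREM2-KO 8, a library that stands apart on component 1, and 55.51 to 97.26 TPM in the others.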

How the results depend on the processing

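With all 15 libraries 658 genes passed, 320 higher in TREM2-KO and 338 lower. Array weights gave 1753 (1112 higher, 641 lower), the fit without the 4 libraries on the positive side of component 1 gave 1755 (1118 higher, 637 lower), the side of component 1 as a term gave 2240 (1381 higher, 859 lower), and the fit without TREM2-KO 4 and 8 and SORL1-KO 7 gave 1137 (626 higher, 511 lower). The 4 libraries alone, 2 against 2, gave 10 (2 higher, 8 lower), and there the APOE difference was -2.18 with a limma adjusted p of 0.101. No filter on low values gave 189 higher, the fit of all 40 libraries 522 higher, and replicates 5 and 6 averaged 175 higher. Higher genes made up 48.6% of calls, 39.2% with median-ratio scaling, 40.2% with quantile normalization, 37.1% with no filter, 63.4% with array weights, 63.7% without the 4 libraries, 61.7% with the side of component 1 as a term and 55.1% without the 3 libraries. Leaving out each library in turn gave 480 to 774 calls, 196 (without SORL1-KO 3) to 414 (without SORL1-KO 7) higher and 265 to 368 lower. The replicate block gave 935 calls, 465 higher and 470 lower; same-numbered libraries had correlations of their deviations from the line means of 0.310 to 0.700 for numbers 1 to 6 and -0.552 for number 7, and numbers 1 to 3 correlated best with their own number. The labels tie the numbers to no shared batch, so the main fit did not take the samples as paired. TREM2-KO 4 correlated best with SORL1-KO 7, TREM2-KO 5 with SORL1-KO 6, and TREM2-KO 6 with SORL1-KO 5. Number 7 correlated negatively. On component 1 SORL1-KO 7 lay at 57.5, TREM2-KO 7 at -17.6 and TREM2-KO 8 at 67.9, so number 7 cannot settle whether the numbers are pairs. The replicate block allows for a factor shared by same-numbered libraries, and what that factor is was not tested. In that fit TREM2-KO 8 had a level of its own, so it added nothing to the difference between the lines. None of the 105 named genes changed sign under the settings run. The larger side of the calls did change: higher genes were the majority under the settings above with over 50% and with a 5 TPM filter (55.0%), the fit of all 40 libraries (53.8%) and without TREM2-KO 8 (50.1%), SORL1-KO 4 (52.7%) or SORL1-KO 7 (53.5%). The median over all genes was 0.03, and -0.0015 with median-ratio scaling. The cause of these shifts was not tested. Settings that leave out libraries have fewer samples, and the TPM table does not give the depth.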
